A study of Mus musculus with 6 samples.

Results

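Retinoic acid genes were measured after 2 days of neural differentiation in mouse embryonic stem cells with and without knockdown of Geminin. The set comprised 9 genes: the retinoic acid target Stra8, the binding protein genes Crabp1 and Crabp2, the retinol receptor gene Stra6, the enzyme genes Dhrs3 and Cyp26a1, and the receptor genes Rara, Rarb and Rarg. All probe sets annotated to exactly 1 of these symbols were taken, which gave 10 of the 45037 probe sets measured and 9 of 18193 genes with such a symbol (2 probe sets for Rarg and 1 for each of the other 8 genes). No probe set carried one of the symbols together with another, and all 10 lay above the limit set for dim probe sets, a mean signal of 20.1 over the arrays.

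The cells were derivatives of the embryonic stem cell line ES-E14TG2a, of 129P2 background, and were kept for 2 days in N2B27, a serum-free medium that permits neural fate. All cultures, controls included, carried a microRNA-embedded hairpin (shRNAmir) against Gmnn, the gene of the replication and chromatin regulator Geminin, under Doxycycline (Dox) control. In each of 3 independent experiments (E1, E2 and E3) a culture given 500 ng of Dox (GemKD) was set beside an uninduced culture without Dox, with 1 Affymetrix expression array each, 6 arrays in all. E1 and E3 used shRNAmir 11 and E2 used shRNAmir 9, in a separate embryonic stem cell line. Since every GemKD culture also had Dox, effects of Dox and of the knockdown cannot be told apart. The labels do not say whether a line is 1 clone.

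Retinoic acid is made from retinol by dehydrogenases that act in sequence, and enters the nucleus with the help of small cytosolic binding proteins. There it binds the receptors RARα, RARβ and RARγ, which pair with retinoid X receptors on direct repeats of a short sequence and switch on target genes. In embryonic stem cells this signal is known to favour neural and posterior fates. Several targets encode parts of the pathway itself, among them Rarb, Cyp26a1 and Dhrs3, and so report on the signal.

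Promoter sequences were used to see which of the 9 genes hold such a repeat next to their start. RefSeq windows of GRCm38.p6, from 250 bases before to 50 bases after a start site, were at hand for 8 of the 9 genes (17 windows), Crabp2 being the one not matched. They were searched on both strands for 2 hexamers in the same orientation with 5 bases between them (DR5). Each hexamer could be AGGTCA, the textbook form, or AGTTCA, as at both sites shown here, or else GGGTCA or otherwise GGTTCA. Of 32851 windows of the same length over all genes 0.0974% held a DR5, and of the 8 matched genes Rarb and Cyp26a1 did. The Rarb repeat lay 53 to 37 bases before the start on the strand of the gene, and that of Cyp26a1 lay 32 to 16 bases before the start on the opposite strand. Hexamers 2 bases apart (DR2) were found in 0.268% of all windows and in none of the 17. The 250 bases before the start of these 2 genes follow, 5′ to 3′ on the strand of the gene, with the DR5 in capitals, which in Cyp26a1 reads as a repeat on the other strand. They are shown since their DR5 lies in the window; a match describes these letters and is no evidence of binding.
Rarb, chr14:16575477-16575726 (- strand): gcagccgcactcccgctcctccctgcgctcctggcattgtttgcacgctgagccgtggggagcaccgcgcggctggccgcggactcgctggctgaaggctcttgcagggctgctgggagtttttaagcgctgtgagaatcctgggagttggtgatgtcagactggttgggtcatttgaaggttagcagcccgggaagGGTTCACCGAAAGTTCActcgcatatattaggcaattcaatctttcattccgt
Cyp26a1, chr19:37697558-37697807 (+ strand): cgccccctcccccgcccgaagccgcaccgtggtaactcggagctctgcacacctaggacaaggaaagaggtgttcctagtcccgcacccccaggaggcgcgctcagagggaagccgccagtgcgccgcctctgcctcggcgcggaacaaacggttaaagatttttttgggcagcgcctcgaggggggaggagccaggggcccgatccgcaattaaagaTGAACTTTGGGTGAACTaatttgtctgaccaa

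Most members differed more between experiments than between GemKD and uninduced cultures. In both arms of E3 the signals of Stra8, Rarb, Dhrs3, Crabp1, Rara, Cyp26a1 and the brighter Rarg probe set were below all 4 arrays of E1 and E2, with Stra8 lower by a log2 difference of 4.30. Within experiments, Stra8, Crabp1 and Dhrs3 had a higher signal in GemKD than in the uninduced culture each time, by 1.06- to 1.77-fold, as did Stra6 by at most 1.95-fold, but no member passed the test of GemKD against uninduced. Crabp2 and Stra6 did not follow the split by experiment. The plot of signals by array shows both features.

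**Figure D1:**
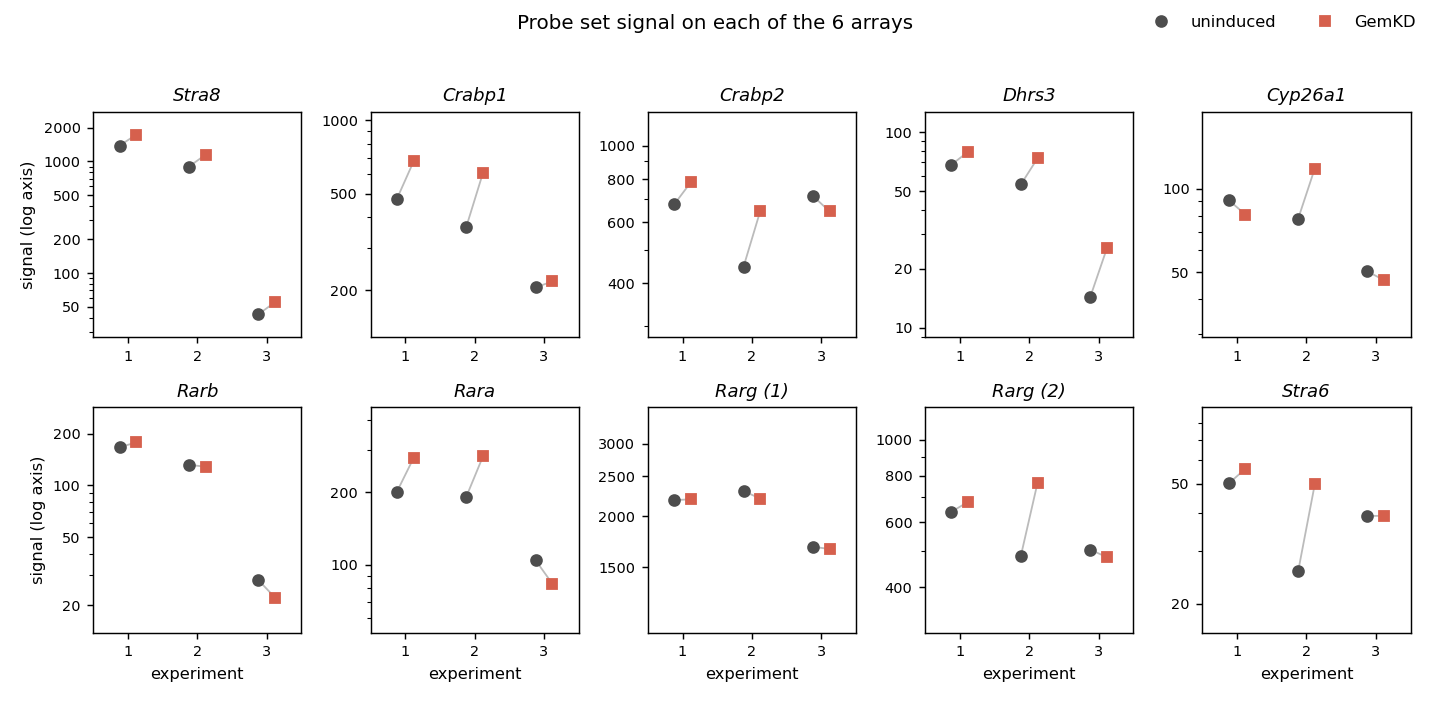
Signal of the 10 probe sets on each of the 6 arrays, with experiments 1 to 3 on the horizontal axis and a log vertical axis that differs between panels. Circles are uninduced and squares GemKD cultures of the same experiment, joined by a line; Rarg (1) is the brighter and Rarg (2) the dimmer probe set. Stra8 sits between 899 and 1742 in experiments 1 and 2 and at 42.8 and 55.0 in experiment 3.

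The depth of the comparison is limited by the number of arrays. Median signals lay between 59.3 and 60.9 on the 6 arrays. Gmnn, measured first as a check of the labels, had 27.6%, 48.0% and 36.7% of the uninduced signal in the GemKD arrays of E1, E2 and E3 (log2 difference -1.44, SE 0.17). The exact two-sided permutation p was 0.1, the smallest that 3 arrays against 3 allow. In limma the adjusted p was 0.296 without and 4.03e-04 with a term for the experiment, called the block below. Differences below are of log2(signal + 16), a scale that understates the change of dim probe sets, and adjusted p-values are Benjamini-Hochberg values of limma's moderated test over all 31526 probe sets above the limit. The labels call the experiments independent and say no more of the cultures, so p-values measure the spread between these arrays. With 1 array from each culture, fewer cells that express a gene and less RNA in each cell cannot be told apart.

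Stra8, a gene induced by retinoic acid and best known for the entry of germ cells into meiosis, showed the widest range. Its uninduced signals were 1385, 899 and 42.8 in E1, E2 and E3, and its GemKD signals were 1742, 1152 and 55.0. GemKD was thus higher than its own control in all 3 experiments, by 1.26-, 1.28- and 1.29-fold, while the arms overlapped across experiments. The group means were 776 ± 680 (SD, n = 3) in uninduced and 983 ± 856 (SD, n = 3) in GemKD cultures, and the log2 difference of 0.32 had an SE of 1.47 (adjusted p = 1). In the blocked fit the SE was 0.08, the 95% interval 0.14 to 0.50 and the adjusted p 0.992 (unadjusted 0.00251). Against this the difference in level from E1 and E2 to E3 was large: the mean signal of the 4 arrays was 1295 ± 358 (SD, n = 4) and that of E3 was 48.9. The difference of -4.30 (SE 0.18, adjusted p = 1.35e-07) was the lowest of all 31526 probe sets, of which this 1 alone was lower by over 4 log2 units. In linear signal each E1 array had 31.7- to 32.4-fold and each E2 array 21.0-fold the level of the E3 array of the same arm.

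Both genes with a DR5 beside the start were lower in E3, to different extents. Rarb encodes a retinoic acid receptor whose own promoter is a textbook target, shown above. Its uninduced signals were 167, 132 and 28.1 in E1, E2 and E3, and its GemKD signals 178, 128 and 22.2. The arms lay close together in every experiment and the experiments far apart. The GemKD difference was -0.05 (SE 0.13 and 95% interval -0.33 to 0.23 in the blocked fit), and its values in the 3 experiments were 0.08, -0.03 and -0.21. E3 was lower, with a log2 difference of -2.01 (SE 0.16, adjusted p = 1.05e-05), a 6.01-fold ratio of mean signals.

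Cyp26a1, whose product oxidises and clears retinoic acid, had uninduced signals of 91.0, 78.0 and 50.5 and GemKD signals of 80.7, 118 and 46.9 in E1, E2 and E3. GemKD was higher than its control in E2 alone, with log2 differences of -0.15, 0.51 and -0.08. Both E3 arrays were the lowest, and E3 differed from the others by -0.73 (SE 0.16, adjusted p = 0.00728), 1.89-fold in mean signal. Among the uninduced arrays alone, 1 array against 2, the E3 difference of Cyp26a1 was -0.59 and was not called (adjusted p = 0.116), and among the GemKD arrays alone it was -0.86. With a single E3 array in each, these do not show that the arms differ; the test of that difference gave -0.26 (adjusted p = 0.771).

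Dhrs3, a short-chain dehydrogenase that turns retinal back into retinol and so limits retinoic acid synthesis, was dim. Its signals were 68.2, 54.0 and 14.4 in the uninduced and 79.4, 73.4 and 25.5 in the GemKD cultures. GemKD was the higher arm each time, with log2 differences of 0.18, 0.35 and 0.45, the largest being that of E3. The mean was 0.33 (SE 0.45, adjusted p = 1; with the block SE 0.15, 95% interval -0.004 to 0.66, unadjusted p = 0.0524). The uninduced E3 array was below the limit of 20.1 at which probe sets were kept. E3 was lower than E1 and E2, with a log2 difference of -1.25 (SE 0.16, adjusted p = 2.3e-04), 3.45-fold in mean signal. The E3 mean of 19.9 was itself under the limit. The probe set was kept because E1 and E2 were high, which leaves this size unsure.

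The binding proteins parted ways. CRABP1 is known to hold retinoic acid in the cytosol and steer it to breakdown, and CRABP2 to hand it to the receptors in the nucleus. Crabp1 signals were 476, 365 and 206 in the uninduced and 678, 608 and 218 in the GemKD cultures of E1, E2 and E3. The GemKD array was higher in each experiment, by 1.42- and 1.66-fold in E1 and E2 and by 1.06-fold in E3. The log2 difference over the 3 experiments was 0.43 (SE 0.44, adjusted p = 1), and in the blocked fit its 95% interval was 0.17 to 0.68 (SE 0.12, unadjusted p = 0.0034, adjusted p = 0.992). In E1 and E2 alone, again with the block, it was 0.60 (95% interval 0.41 to 0.80) at an adjusted p of 0.0604, without E1 it was 0.39 (adjusted p = 0.692) and without E2 it was 0.29 (adjusted p = 1). E3 was lower, with a log2 difference of -1.23 (SE 0.14, adjusted p = 1.02e-04), and both its arrays were below the other 4.

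Crabp2 had uninduced signals of 676, 446 and 715 and GemKD signals of 784, 646 and 645. Here the E3 arrays lay among the others, and the lowest array of all was the uninduced one of E2. The E3 difference was 0.12 with a 95% interval of -0.23 to 0.46 (adjusted p = 0.632). That interval counts the arms of an experiment as separate arrays, so it sets no bound on differences between experiments. The sign turned to -0.10 against E1 alone and to -0.14 among the GemKD arrays alone. GemKD differed from its control by 0.21, 0.52 and -0.15 in E1, E2 and E3 (mean 0.19, SE 0.18, adjusted p = 1). Without the uninduced array of E2 the unblocked difference was -0.01.

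Stra6, the membrane receptor through which cells take up retinol from its carrier in blood, was dim on every array. Its signals were 50.2, 25.6 and 39.1 in the uninduced and 56.2, 49.9 and 39.2 in the GemKD cultures. The E3 arrays lay next to each other, inside the range of the others. They gave an E3 difference of -0.13 (95% interval -0.58 to 0.33, adjusted p = 0.694) that changed sign, to 0.08 and 0.07, without E1 and among the uninduced arrays alone. The log2 GemKD difference was 0.13, 0.66 and 0.001 in the 3 experiments. The uninduced array of E2 was the lowest of the 6.

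Of the receptor genes, Rara had differences of opposite sign between experiments. Its uninduced signals were 201, 192 and 104 and its GemKD signals 278, 282 and 83.2. GemKD was 1.38- and 1.47-fold its control in E1 and E2, with both GemKD arrays above both controls, and 0.80-fold in E3. The log2 differences were 0.44, 0.52 and -0.28 (mean 0.23; SE 0.44 and adjusted p = 1, or SE 0.15 and unadjusted p = 0.152 with the block). In E1 and E2 alone the blocked value was 0.48 (95% interval 0.25 to 0.71, unadjusted p = 7.81e-04, adjusted p = 0.255). The E3 level was lower, with a log2 difference of -1.20 (SE 0.15, adjusted p = 2.5e-04), 2.54-fold in mean signal.

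Rarg, the gene of the receptor RARγ, had 2 probe sets. The brighter gave 2187, 2302 and 1685 in the uninduced and 2199, 2208 and 1663 in the GemKD cultures. GemKD and control lay close together in every experiment, and E3 was lower, with a log2 difference of -0.41 (SE 0.05, adjusted p = 1.54e-04), a 1.33-fold ratio. The dimmer gave 640, 487 and 506 in the uninduced and 681, 765 and 483 in the GemKD cultures. Its E2 arrays differed by 0.64 where those of the brighter differed by -0.06, so the probe sets disagree on GemKD in that experiment. For E3 the dimmer probe set had -0.35 (SE 0.12, adjusted p = 0.0559) and did not pass. Without E2 it was -0.41 and without E1 it was -0.30, each of which sets E3 beside a single experiment.

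GemKD against uninduced was then read over all members. None of the 10 passed in limma (adjusted p = 1 for each), where 0.00317% of all probe sets did, and none passed with the block (adjusted p = 0.992 for each), where 0.00952% did. At an unadjusted p under 0.05 none of the 10 was past the threshold without the block (1.1% of all), and with it Stra8 and Crabp1 were (4.62% of all). The unblocked fit keeps the differences between experiments in its spread, as the SE of 1.47 for Stra8 shows against 0.08 with the block. The median log2 difference of the 10 was 0.22 against 0.01 over all probe sets tested. Stra8, Crabp1, Dhrs3 and Stra6 were higher in GemKD in all 3 experiments, 4 of 10 where 13.5% of all probe sets were, and none was lower in all 3 (10.5% of all). In E1 and E2 together 7 of 10 were higher in GemKD, where 26% of all probe sets were, and the 3 of these that were lower in E3 were Crabp2, Rara and the dimmer Rarg probe set (12.5% of all). The GemKD and uninduced arrays overlapped for each of the 10, while 5.09% of all probe sets had no overlap. The members were chosen with such results of these data known, so these counts describe them and support nothing. The plot of differences by experiment shows the values.

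**Figure D2:**
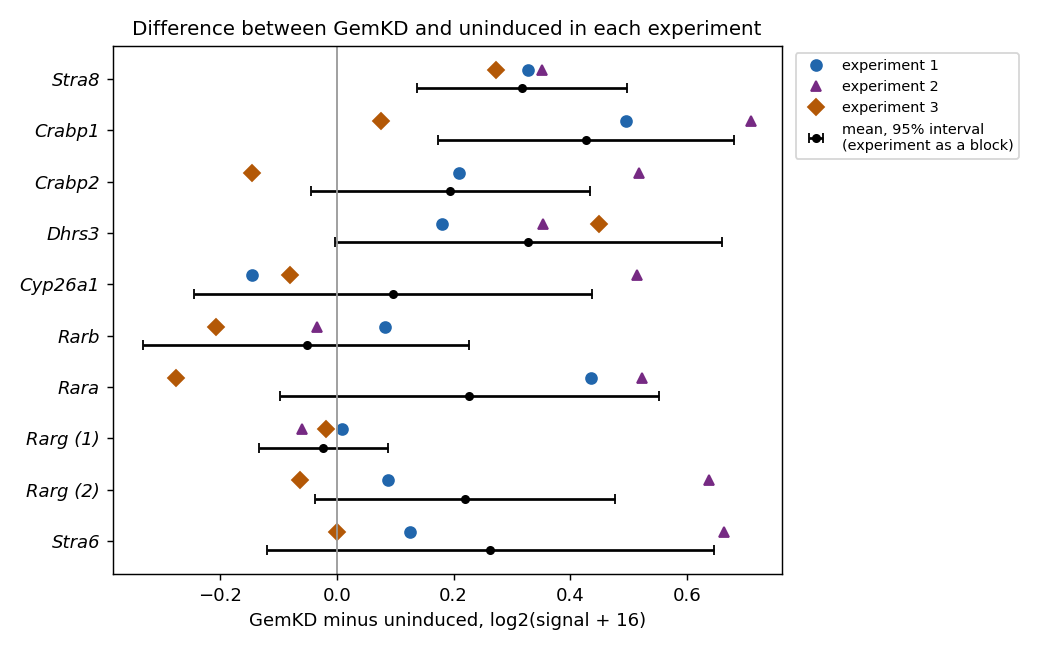
Log2 difference, GemKD minus uninduced, of each of the 10 probe sets in experiment 1 (circle), 2 (triangle) and 3 (diamond), with the mean and 95% interval of the limma fit with the experiment as a block in black. Stra8 lies between 0.27 and 0.35 in the 3 experiments, while Rara lies at 0.44, 0.52 and -0.28.

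Whether the GemKD effect itself differed between experiments or hairpins was tested by interaction terms, which leave 1 residual degree of freedom, so a missed threshold says little. For E3 against E1 and E2 none of the 10 members passed (0.00634% of all probe sets did). The largest differences of effect were -0.75 for Rara (95% interval -1.18 to -0.33, unadjusted p = 0.00259, adjusted p = 0.311), -0.53 for Crabp1 (-0.90 to -0.16, adjusted p = 0.336) and -0.51 for Crabp2 (-0.86 to -0.16, adjusted p = 0.335). Stra8 had -0.07 (-0.40 to 0.26, adjusted p = 0.892). For shRNAmir 9, used in E2, against shRNAmir 11 no member passed either (0.336% of all probe sets did, 0.308% higher and 0.0285% lower). There 7 of the 10 had their largest and positive GemKD difference in E2, where 25.1% of all probe sets did, led by Cyp26a1 with 0.63 (adjusted p = 1), the dimmer Rarg probe set with 0.63 (adjusted p = 0.368) and Stra6 with 0.60 (adjusted p = 1). The comparison rests on 1 pair of arrays for shRNAmir 9, and its hairpin and its experiment cannot be told apart. Gmnn itself was lowered less in E2, by 0.59 on the log2 scale (adjusted p = 0.0415), a call lost with no filter and without the intensity trend, where no probe set passed.

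The comparison of E3 with E1 and E2 was fitted over the 6 arrays with the treatment as a covariate. It sets 1 experiment beside 2, and its p-values describe these arrays. Of the 10 probe sets 7 were called lower and none higher, where 16.7% of all probe sets were lower and 11% higher, so E3 stood apart widely. Those 7 were also the ones with both E3 arrays below all 4 others, as were 25.7% of all probe sets. The median E3 difference of the 10 was -0.96 against -0.01 over all probe sets tested. In size, 5 of 10 were lower by over 1 log2 unit, where 1.39% of all probe sets were, and Stra8 and Rarb were lower by over 2 (0.152% of all). Dhrs3 is 1 of these 5, and with its E3 mean under the limit its size is unsure. E1 and E3 shared their hairpin. Against E1 alone the differences were -4.60 for Stra8, -2.20 for Rarb, -1.36 for Crabp1 and -1.34 for Dhrs3. They were -1.21 for Rara, -0.65 for Cyp26a1 and -0.39 for the brighter Rarg probe set. That sets 1 experiment beside 1, so the spread between experiments is not measured and sizes alone are given. E1 and E2 had different hairpins, and for these 7 they lay closer than E1 and E3. Stra8 was 1.54-fold higher in E1 than in E2 among the uninduced and 1.51-fold among the GemKD arrays. In the uninduced arrays the other 3 probe sets went the other way. There E1 was 1.515-fold E2 and 0.946-fold E3 for Crabp2, and 1.96- and 1.28-fold for Stra6. For the dimmer Rarg probe set it was 1.32- and 1.27-fold. The part of hairpin or line in these gaps was not tested. The members were chosen with earlier results of these data known, so the E3 counts and medians describe them and support nothing. Intervals are drawn in the plot of E3 differences.

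**Figure D3:**
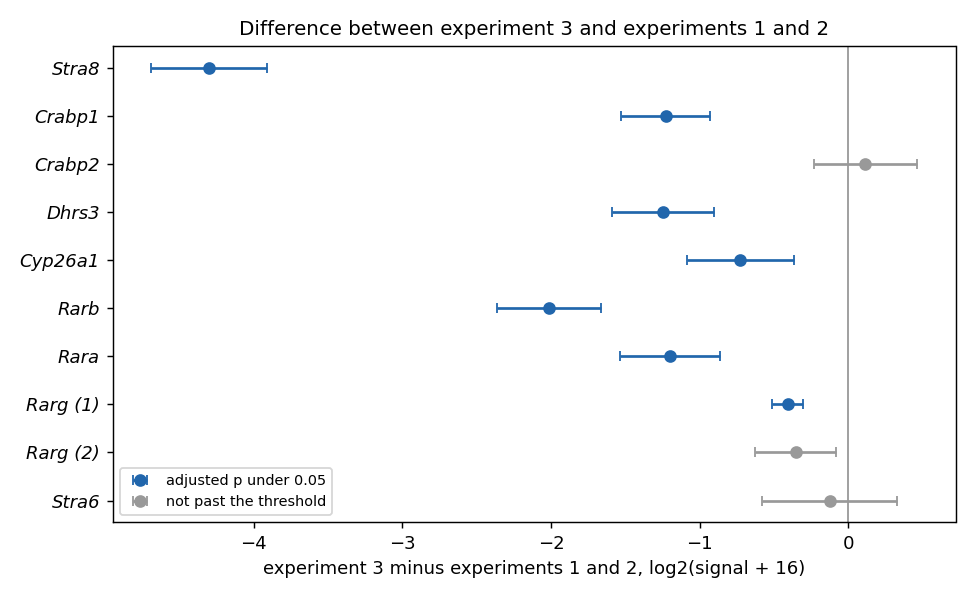
Log2 difference, experiment 3 minus experiments 1 and 2, of the 10 probe sets with 95% intervals from the limma fit over 6 arrays; blue points passed an adjusted p of 0.05 and grey points did not. Stra8 stands at -4.30 and Rarb at -2.01, while Crabp2 (0.12) and Stra6 (-0.13) straddle 0.

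Across the 6 arrays the members that were low in E3 ran together. Pearson's r of their log2 signals was 0.99 between Stra8 and Rarb, 0.98 between Stra8 and Dhrs3 and 0.97 between Crabp1 and Rara, and -0.10 between Stra8 and Crabp2. The 6 values share 3 experiments and mostly repeat the gap between E3 and the others, so these are descriptions. The genes most like Stra8 in this measure were Zfp975, Echdc1 and Ntn1 (r of 0.999 each), those most like Crabp1 were Ddah2, Fbln1 and Zmiz1 (0.997, 0.996 and 0.996), and those most like Dhrs3 were Abcg2, Dcaf8 and Aldh7a1 (0.999 each). They differed from the members in size: Zfp975 was at 750 to 833 in E1 and E2 and at 494 and 516 in E3.

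A wider list of 50 retinoic acid pathway genes placed the members among their neighbours; 42 had a probe set and 35 one above the limit, 69 probe sets in all. In E3 22 of the 69 were called lower and 5 higher, 39.1% against 27.7% of all probe sets in both directions. Of 37 probe sets of known targets 16 were lower, in 11 of 18 genes, and none was higher, with a median of -0.34. Over all probe sets tested 16.7% were lower and 11% higher, with a median of -0.01. By gene, 3542 of the 14185 genes tested had a probe set called lower. The list was chosen with earlier results of these data known, so its counts describe it and support nothing. The homeobox factor gene Meis2 averaged 2573 in E1 and E2 and 405 in E3 (-2.62, SE 0.08, adjusted p = 2.7e-08). Meis1, of the same gene family, differed by -2.11 in its brightest probe set. Its dimmer probe sets had 0.24 and 0.03 and were not called. Hoxa3, a hindbrain Hox gene, averaged 471 and 48.3 (-2.91, adjusted p = 2.83e-06). Its relatives Hoxb1 and Hoxb2 averaged 190 and 216 in E1 and E2, and both E3 arrays of each were below the limit of 20.1 (4.32 and 8.88 for Hoxb1, 11.5 and 11.1 for Hoxb2). They were tested because E1 and E2 were high, so they are called lower with no size given. Wnt8a, a Wnt ligand gene, had -2.02, Foxa1 -0.69 and Nr6a1, an orphan receptor gene, -0.34. Zfp703 and the orphan receptor gene Nr2f1 were called lower too, with E3 means under the limit (16.9 against 57.6 and 18.7 against 47.2) that leave the sizes unsure. Tshz1 was called in its dimmer probe set alone, whose E3 arrays were both below the limit (12.5 and 11.0), and had 0.14 in the brighter.

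The other roles are given beside the shares over all probe sets, 11% higher and 16.7% lower in E3, and differences between roles were not tested. Among 14 probe sets of synthesis and storage none was lower and 3 were higher, from Rdh11 (0.44, adjusted p = 0.00178) and Dhrs4 (0.36, adjusted p = 0.011). Aldh1a2, which makes retinoic acid from retinal in the early embryo, averaged 145 in both sets (0.002, adjusted p = 0.991), and the retinol dehydrogenase gene Rdh10 had 0.05. Aldh1a1 and Aldh1a3 were below the limit, as was Cyp26b1, and no probe set of Cyp26c1 was used here. Fabp5, which can carry retinoic acid to another nuclear receptor, was higher in both probe sets (0.54 and 0.84, adjusted p = 5.04e-06 and 1.2e-05). Of the nuclear partners and coregulators 6 of 15 probe sets were lower, 3 of Nrip1 (-0.99 in the brightest), both of Ncoa1 (-0.75 in the brighter) and 1 of Ncoa3 (-1.22 against -0.19 in the brighter), while Rxrb, a partner of the retinoic acid receptors, had 0.002. Of the genes not called in E3 the largest differences, by the brightest probe set of each, were those of Egr2 (0.59), Lrat (-0.42), Rxrg (0.35), Bco1 (0.34), Rxra (0.31) and Rdh14 (-0.22).

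**Figure D4:**
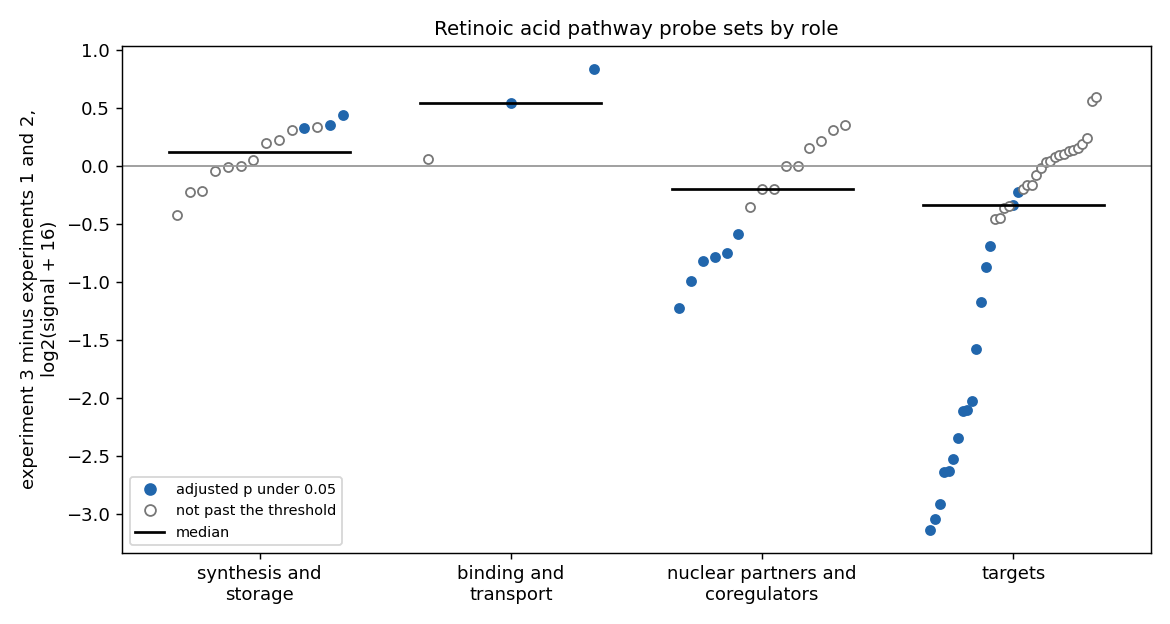
Log2 difference, experiment 3 minus experiments 1 and 2, of the 69 probe sets of the pathway list above the limit, by role, in ascending order within each role; filled points passed an adjusted p of 0.05 and bars are medians. Of the targets, the lowest 2 points (Hoxb1 and Hoxb2) and the dimmer Tshz1 probe set had both arrays of experiment 3 below the limit. The 16 filled points among targets all lie below 0, and the 3 filled points of synthesis and storage lie between 0.33 and 0.44.

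In GemKD against uninduced none of the 69 passed with or without the block, and the median was 0.03 against 0.01 over all. The largest values were those of Lefty1 (0.79), Zfp703 (0.64), Hoxb1 (0.57), Wnt8a (0.33), Hoxb2 (0.30) and Bco1 (0.29), taking the brightest probe set of each gene. Lefty1, a Nodal antagonist gene, had a blocked adjusted p of 0.18, and of 0.00426 in E1 and E2 alone, where 0.0412% of all probe sets passed. Zfp703 had differences of 0.39 and 0.62 and Hoxb1 of 0.48 and 0.94 in E1 and E2 (blocked adjusted p = 0.992 each over the 3 experiments). In E3 both Hoxb1 arrays and the uninduced Zfp703 array (7) were below the limit, as were both Hoxb2 arrays, so the mean differences of these genes rest partly on signals near background.

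Of 31 genes with a DR5 in a start window 11 had a probe set and 7 were above the limit. In E3 4 of the 7 were lower (Rarb, Cyp26a1, Syndig1 and Gm14133), 1 was higher (Blvrb) and 2 were not called. Over all probe sets tested 16.7% were lower and 11% higher. Those shares count every probe set of a gene, while 1 was read for each gene here, so they are not a like background. The median of the 7 was -0.53, against -0.01 over all probe sets tested. Syndig1 had -0.89 (adjusted p = 6.05e-04), Gm14133 -0.53 (adjusted p = 0.0306) and Blvrb 0.73 (adjusted p = 5.33e-05). This group was looked at after the values were seen and includes both members, so it carries no test.

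Markers of cell state differed in E3 as well. The counts stand beside the shares over all probe sets tested, 16.7% called lower in E3 and 11% called higher. Markers were read from the brightest probe set of each gene, while these shares include dimmer ones, so they are not a like background. Of 8 neural markers, which check the labelled neurectoderm, all were above the limit in mean signal (Hes5 by little, at 20.8); 5 were lower in E3 (Pax6 -2.25, Sox1 -2.04, Cdh2 -0.98, Zic1 -0.85 and Sox2 -0.18) and Sox3 was higher (0.35), with summed signals of 11100 to 11950 in E1 and E2 and 7896 to 8517 in E3. Of 6 pluripotency markers 4 were lower, led by Nanog (-2.61), with sums of 18780 to 20890 and 13550 to 14390, and Pou5f1 had -0.03. All 4 primed epiblast markers were higher, led by Fgf5 (2.17), with sums of 13520 to 15670 and 20340 to 20690. Of 4 germ cell markers, considered because of Stra8, 3 were lower, Dazl (-0.57), Prdm1 (-0.52) and Ddx4 (-0.25). The fourth, Sycp3, went the other way and was not called (0.21, adjusted p = 0.0719 in limma). Germ cell sums were 3548 to 4051 in E1 and E2 and 3385 to 3874 in E3. None of 7 endoderm markers was called (531 to 791 and 654 to 688). For mesoderm 1 of 6 was lower, Pdgfra (773 to 904 and 744 to 763), for trophoblast 1 of 4 was higher, Krt8 (197 to 239 and 283 to 338), and for fibroblasts 3 of 6 were lower and 1 higher, led by Postn at -2.66 (1004 to 1111 and 476 to 530). Mixl1 and Elf5 were below the limit. No marker of any list passed in GemKD against uninduced over the 3 experiments, with or without the block. In E1 and E2 alone with the block, the setting given above for Crabp1, Rara and Lefty1, Nanog passed (0.56, adjusted p = 0.00629). The part of cell state or cell type in the differences of the members was not tested.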

How the data were processed

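Per the labels' protocols, total RNA was biotin-labelled and hybridised to 1 Affymetrix GeneChip for each of 6 samples. The authors deposited 1 linear intensity per probe set and array. The software, background correction and normalization behind it were not stated in the labels or headers; the medians lay on a common scale, and no further normalization was applied. Between 1.58% and 1.69% of the values of an array were exactly 1 and were kept. The platform annotation gave 1 gene symbol for 34945 probe sets, several for 932 and none for 9160; the members' symbols were checked against RefSeq's table of GRCm38.p6 (all 10 probe sets found, 0 changed), which with RefSeq's promoter table gave the sequences.

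Signals were transformed as log2(signal + 16). The 31526 probe sets with a mean above the 30th percentile (20.1) were tested with limma 3.58.1 in R 4.3.3 (two-sided moderated tests, eBayes with a trend on mean intensity, Benjamini-Hochberg threshold 0.05). GemKD was fitted with no block, and experiment 3 with the treatment as a covariate. The experiment number pairs the arrays, since each experiment had its own control with the same hairpin. Deviations from the group means correlated within experiments 1, 2 and 3 with 0.431, 0.38 and 0.656. Between experiments 1 and 2 they also correlated (0.386 and 0.26), and with experiment 3 the correlations were negative (-0.54 to -0.406). The pairing is therefore taken from the design. Interactions had the experiment as a block. The tests were tried on simulated data. Named were all members, Gmnn, the marker lists, the pathway genes called or with the 6 largest differences, and the 3 genes most like Stra8, Crabp1 and Dhrs3 by Pearson's r. Genes with a DR5 were chosen after their values were seen. Members and lists were chosen with earlier results of these data known.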

Additional observations from a re-analysis of the deposited data

Results flagged for a closer look

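The uninduced array of experiment 2 stood apart for Stra6 among the 4 arrays of experiments 1 and 2. On the log2 scale used for the differences, its gap to the next value was 0.834 of their range. That is past the 95% critical value of Dixon's test for 4 values. Chance passes that limit in about 1 of 20 groups. In the signals before this transformation the gap was a smaller share of the range. The arrays mix GemKD and uninduced cultures and both hairpins, while the test assumes a single sample, so it cannot decide whether this array is an outlier. The GemKD effect on Gmnn in experiment 2, the one with shRNAmir 9, differed by 0.59 on the log2 scale from that in the others, where Gmnn was lowered more (limma interaction, adjusted p = 0.0415 over all probe sets). It rests on 1 pair of arrays, hairpin and experiment cannot be told apart, and the call is lost with no filter and without the intensity trend.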

How the results depend on the processing

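The 7 members called lower in experiment 3 kept that direction under all 13 alternatives run (12 for Dhrs3, which a filter at the 50th percentile leaves untested), and all but Cyp26a1 among the uninduced arrays alone stayed called. No alternative called a member in GemKD against uninduced. Over the members, 436 values kept direction and call, 28 changed sign, 3 became called and 1 lost its call; the cause of these changes was not tested. For GemKD, 1 probe set was called, 0 without the intensity trend and 3 with the replicate block (0 to 1 on leaving out an array or experiment, 12 to 17 with the block as well). Gmnn was called with the block at -1.44 and, leaving out 1 experiment, at -1.64 to -1.24 (-1.44 without experiment 3); the block over all 3 experiments changed no other call among the genes named, and without experiment 3 it also called Lefty1 and Nanog (adjusted p = 0.00426 and 0.00629). Of the pathway list 0 to 1 probe sets were called in GemKD when the block and a left-out experiment were combined. Leave-out values of the unblocked log2 difference ran from -1.11 to 1.76 for Stra8, 0.11 to 0.92 for Crabp1, -0.013 to 0.36 for Crabp2, -0.12 to 0.71 for Dhrs3, -0.17 to 0.38 for Cyp26a1, -0.69 to 0.66 for Rarb, -0.046 to 0.75 for Rara and -0.16 to 0.11 for the brighter Rarg probe set, in which leaving out 1 array unbalances the experiments. With the block, Cyp26a1 was -0.11 without experiment 2 and Rarb 0.025 without experiment 3. For experiment 3, 8735 probe sets were called, 4910 with the brightest probe set of each gene (fewer tested), 3057 among the uninduced arrays alone (fewer arrays) and 5884 to 7095 without experiment 1 or 2; the pathway list gave 27, then 16 with the brightest probe sets. Crabp2 there was -0.14 among the GemKD arrays alone and -0.10 to 0.33 on leaving out an experiment, and Stra6 was 0.071 among the uninduced arrays alone and -0.33 to 0.075 on leaving one out. The test of the GemKD effect in experiment 3 called 2 probe sets, 1 with no filter, 1 at a pseudocount of 1 and 0 without the trend; Stra8 was 0.011 at a pseudocount of 1 and the brighter Rarg probe set -0.004 after quantile normalization. The test between hairpins called 106, then 0 with no filter, 161 at the 50th percentile, 0 without the trend and 46 with the brightest probe sets; Dhrs3 was -0.064 at a pseudocount of 1 and Rarb -0.011 at 64. Dim probe sets such as Dhrs3 and Stra6 lie near background, which limits their fold changes.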
